A study of Mus musculus with 12 samples.

Results

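The mitochondrial ribosomal proteins were taken as every gene whose symbol starts with Mrpl or Mrps followed by a digit. By that rule 76 of the 25206 probe sets of the deposited table were members, 1 probe set per gene. Mrps36 is given apart from the other 75, because its product is now also known as a subunit of the oxoglutarate dehydrogenase complex. The arrays held RNA from mouse pluripotent cells of female C57BL/6 origin, kept undifferentiated without serum or feeder cells in 2iLIF medium. Induced pluripotent stem cells (iPSC, somatic cells reprogrammed to pluripotency) and embryonic stem cells (ESC) were loaded with tetramethylrhodamine methyl ester (TMRM). This cationic dye gathers in mitochondria according to their membrane potential, and flow sorting by its fluorescence gave a high and a low fraction. The 4 groups were iPSC high, iPSC low, ESC high and ESC low, with 3 arrays each, numbered 2, 3 and 4 in the labels. All groups share strain, sex, medium and dye. How many lines were used, which cells were reprogrammed and where the sort gates lay is not stated in the labels.

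Mitochondria translate the few proteins of their own genome, all of them core subunits of the respiratory chain and ATP synthase, on a ribosome of their own. Its RNA comes from mitochondrial DNA, while its proteins are encoded in the nucleus, made in the cytosol and imported. A small subunit binds and decodes the mRNA, and a large subunit joins amino acids and releases the growing chain at the inner membrane. Mammalian mitochondrial ribosomes hold much less RNA and more protein than bacterial ones, so that many of their proteins have no counterpart in bacteria. Of the 75 members, 50 belong to the large subunit and 25 to the small one. Mrps18a and Mrps30 are counted in the large subunit, where their products sit despite their names. The lists used here count 43 members as having a counterpart in bacteria and 31 as particular to mitochondria. Mrps18a, Mrps18b and Mrpl58 were counted among the 31, and Mrpl55 was left unassigned.

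Values are on the log2 scale of the deposited table, in which a difference of 1 is a doubling. Array medians over all probe sets lay between 3.51 and 3.61, and correlations between arrays across probe sets were 0.991 to 0.994 within groups and 0.986 to 0.994 between groups. All 9 pluripotency markers examined were measured, and the log2 of their summed level was 12.37 to 12.48 in iPSC high, 12.38 to 12.56 in iPSC low, 12.25 to 12.37 in ESC high and 12.25 to 12.43 in ESC low. The 8 fibroblast markers, a possible other cell, summed to 6.09 to 6.14, 5.99 to 6.06, 6.03 to 6.07 and 6.00 to 6.21 in the same groups. None of these markers passed an adjusted p of 0.05 in limma in any comparison, and 3 of the 8 fibroblast markers had an unadjusted p under 0.05 for the iPSC effect minus the ESC effect. Among genes of G2 and mitosis, chosen because earlier results of these data showed them to move with the fraction, 15 were measured. Over both cell types all 15 were above 0 in high minus low, and 12 passed as higher in limma. Of all 25206 probe sets, 403 passed as higher. The log2 sums of the 15 genes were 12.53 to 12.59 in iPSC high against 12.03 to 12.08 in iPSC low, and 12.38 to 12.55 in ESC high against 11.94 to 12.01 in ESC low. That these genes moved with the fraction was fixed by how they were chosen. Their part in the high-minus-low results below was not tested.

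Nearly all ribosomal protein genes were in the brighter part of the table. Mean levels over the 12 arrays ran between 2.42 and 8.71 with a median of 6.28, and 44 of the 75 lay above 5.98, the upper quartile of all probe sets. Mrpl23 (2.42), Mrps14 (2.67) and Mrpl36 (3.33) were below the median of all probe sets, 3.56. The table has no detection calls and probe sets differ in brightness for the same amount of RNA, so these levels do not rank the genes. Replicate arrays agreed somewhat more closely for the members than for the table as a whole. The median residual SD within groups was 0.137 for the 75 members, 0.150 for probe sets at or above the median level and 0.160 for all probe sets.

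Single members spread very unequally. The tightest was Mrpl38, a protein particular to the mitochondrial large subunit, with a residual SD of 0.0398. It read 6.66, 6.67 and 6.60 in iPSC high, 6.60, 6.64 and 6.71 in iPSC low, 6.64, 6.61 and 6.64 in ESC high and 6.52, 6.46 and 6.54 in ESC low. Its ESC high and ESC low arrays did not overlap, but the difference of 0.12 ± 0.08 (SE) had an adjusted p of 0.733 in limma. Mrps14, a protein of the head of the small subunit, was the loosest, with a residual SD of 0.585 at a low level. Its arrays read 3.38, 2.15 and 2.42 in iPSC high, 3.34, 2.69 and 2.73 in iPSC low, 2.52, 2.35 and 3.71 in ESC high and 2.21, 1.78 and 2.81 in ESC low. The groups overlapped, and Mrps14 missed the threshold in every comparison.

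**Figure D1:**
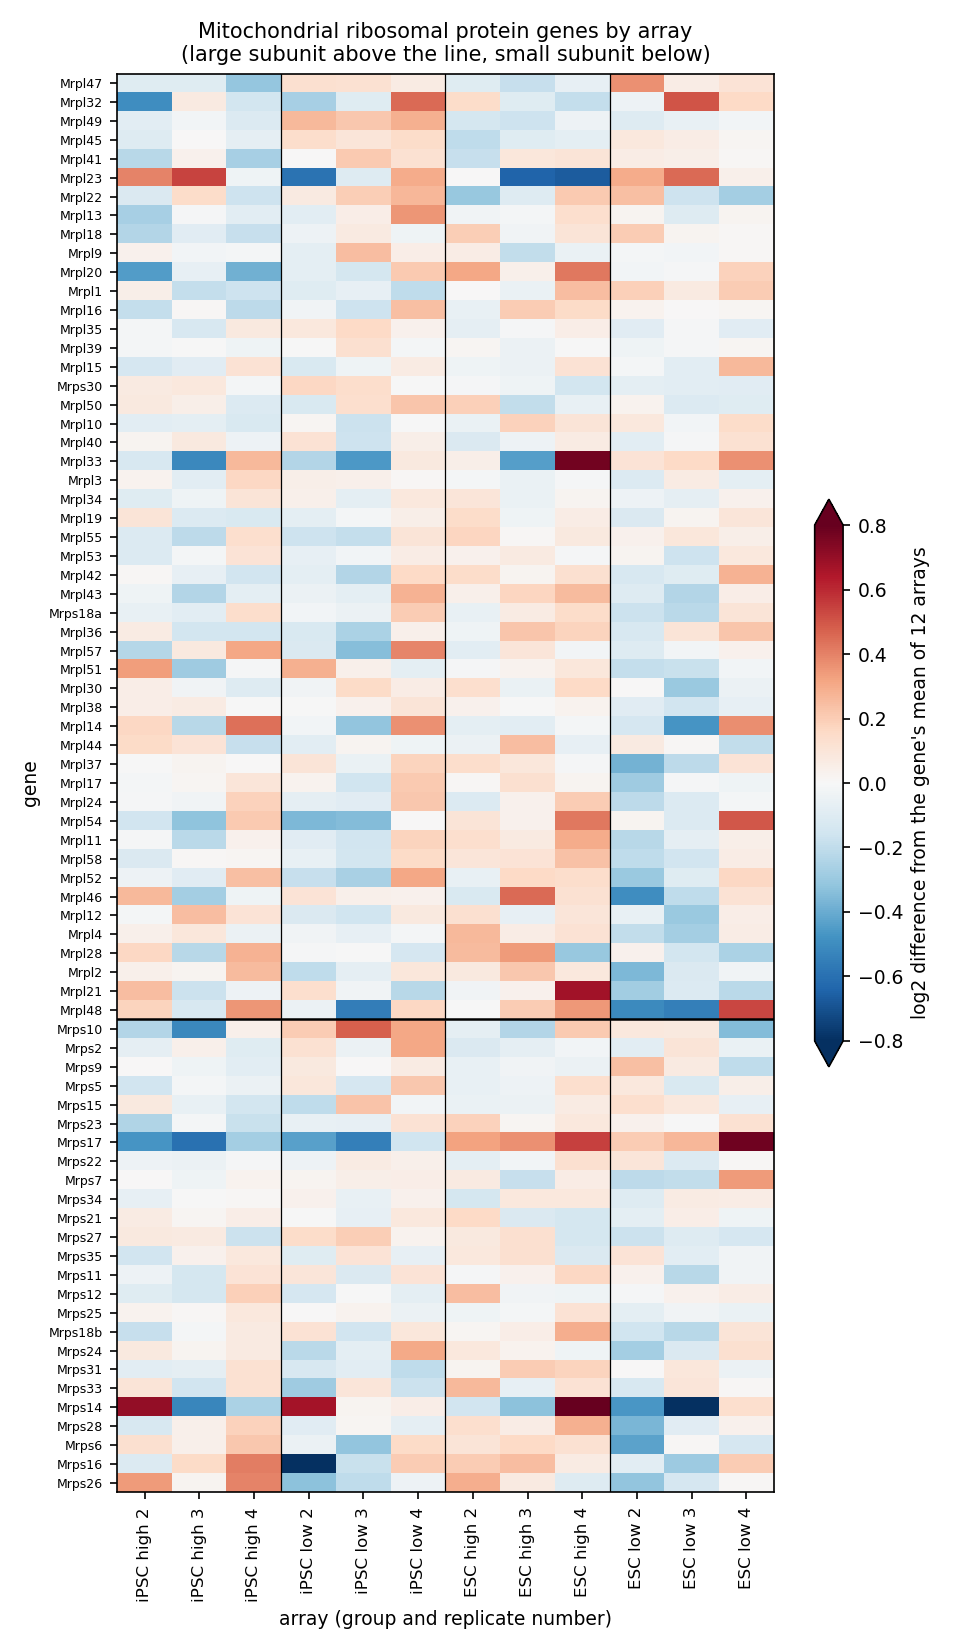
Level of each of the 75 members on each of the 12 arrays, drawn as the log2 difference from that gene's mean over the arrays (red higher, blue lower). Columns are arrays by group and replicate number, rows are genes, and the black line divides the large subunit (above) from the small one. Within each subunit rows run from the lowest to the highest high-minus-low difference over both cell types. A change of colour from top to bottom between high and low columns follows from that order. Mrps17 is blue in all 6 iPSC columns and red in all 6 ESC columns.

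The first question of the design is whether mRNA of this ribosome differs with membrane potential. In iPSC, 0 of the 75 members passed an adjusted p of 0.05 in limma, where 0.547% of all probe sets did. Unadjusted, 6 members (8.0%) had p under 0.05 against 12.7% of all probe sets. Arrays did not overlap between iPSC high and iPSC low for 7 members, 1 higher and 6 lower, while 19.3% of all probe sets did not overlap in either direction. In ESC, again 0 of 75 passed in limma against 0.357% of all probe sets. There 9 members (12%) had an unadjusted p under 0.05, against 8.29% of all. ESC high and ESC low did not overlap for 13 members, 10 higher and 3 lower, against 13.1% of all probe sets. Over both cell types 0 of 75 passed in limma, against 2.5% of all, and 9 (12%) had an unadjusted p under 0.05, against 15.6% of all. The members' shares at an unadjusted p were thus under the table's in iPSC and over both cell types, and above it in ESC. In bulk RNA of sorted cells, fewer cells with a transcript and less transcript per cell cannot be told apart.

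Most differences were small as well as uncalled. Within 0.25 of 0 on the log2 scale lay 65 of the 75 members (86.7%) in iPSC, against 81.0% of all probe sets, 62 (82.7%) in ESC, against 85.7%, and 69 (92.0%) over both cell types, against 88.9%. The median log2 difference of the members was -0.02 in iPSC, where 32 of 75 (42.7%) were above 0, and 0.05 in ESC, where 58 of 75 (77.3%) were. Of all probe sets 50.8% were above 0 in iPSC and 49.0% in ESC. Of those at or above the median level 38.9% and 47.7% were. Over all probe sets the corresponding medians were 0.0030 and -0.0038, and over probe sets at or above the median level they were -0.04 and -0.0091. These medians depended on the processing and on single arrays. With each array centred on its own median they were -0.08 in iPSC and 0.03 in ESC. That array median did not follow the brighter probe sets, where nearly all members lie. On iPSC low replicate 4, for example, it was 3.51 while the median of the brighter probe sets was 6.07. On iPSC high replicate 3 the same 2 medians were 3.61 and 5.93. Leaving out single arrays put the iPSC median between -0.05 and -0.0002, nearest to 0 when the array dropped was iPSC low replicate 4. It was -0.0056 when iPSC high replicate 3 was dropped. Without single arrays the ESC median lay between 0.05 and 0.09, highest without ESC high replicate 3 or ESC low replicate 4. The medians by subunit and by ancestry were close to these. In iPSC the medians were -0.02 for the large and -0.04 for the small subunit, -0.02 for members with a bacterial counterpart and -0.03 for those particular to mitochondria. In ESC they were 0.05, 0.04, 0.05 and 0.08 for the same sets. Over both cell types the median of the 75 was 0.02, and it turned to -0.02 when each array was first centred on its own median.

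**Figure D2:**
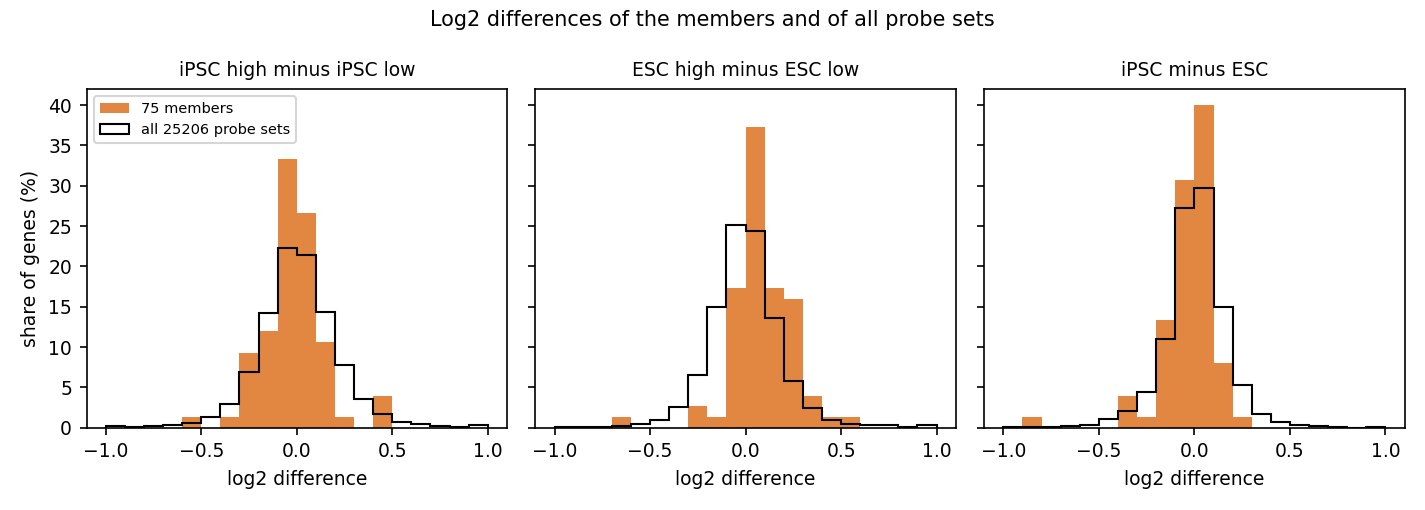
Distribution of log2 differences for the 75 members (filled) and all 25206 probe sets (outline), as a share of genes (%) per bin of log2 difference, for iPSC high minus iPSC low, ESC high minus ESC low, and iPSC minus ESC. Differences beyond 1 in size are counted in the outermost bins. The members are centred at -0.02 in iPSC and at 0.05 in ESC, and the single member far to the left in iPSC minus ESC is Mrps17.

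The members' level also varied with the replicate number. The median of the 75 members on an array was 6.23, 6.28 and 6.52 in iPSC high, 6.26, 6.30 and 6.48 in iPSC low, 6.38, 6.34 and 6.43 in ESC high and 6.25, 6.30 and 6.32 in ESC low, for replicates 2, 3 and 4. The array numbered 4 had the highest median in each of the 4 groups. The median of all probe sets at or above the median level was also highest on array 4 in iPSC low, ESC high and ESC low. In iPSC high it was highest on array 2. Group means of these medians were 6.34 ± 0.16 in iPSC high against 6.34 ± 0.12 in iPSC low, and 6.38 ± 0.05 in ESC high against 6.29 ± 0.04 in ESC low (SD, n = 3 each). Taken pair by pair, the median high-minus-low difference of the members was 0.0020, -0.02 and -0.07 in iPSC, with 38, 36 and 26 of 75 above 0. In ESC it was 0.12, 0.11 and 0.04, with 51, 53 and 42 of 75 above 0. Over probe sets at or above the median level the same pairs gave -0.03, -0.04 and -0.07 in iPSC. In ESC those probe sets gave -0.0083, 0.0024 and -0.02. What sets the arrays numbered 4 apart is not stated in the labels, and the cause was not tested. Without these 4 arrays the median high-minus-low difference of the members was -0.02 in iPSC and 0.10 in ESC, the ESC value against 0.05 with them. Each called member below is also given without them.

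**Figure D3:**
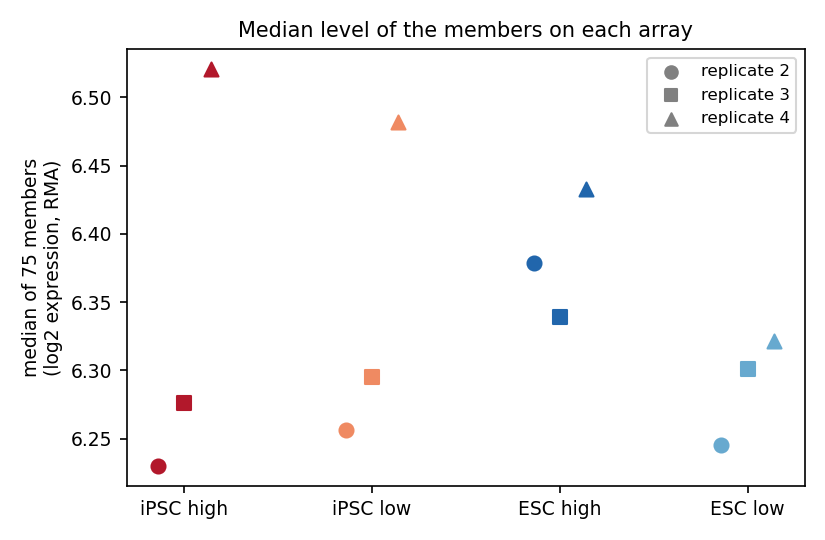
Median log2 level of the 75 members on each array, by group, with a symbol for each replicate number (circle 2, square 3, triangle 4). The triangles are the highest of their group in all 4 groups, at 6.52 in iPSC high, 6.48 in iPSC low, 6.43 in ESC high and 6.32 in ESC low.

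Mrps36 was the exception between the fractions. It was first described as a protein of the small subunit, and is now known in yeast and mammals as an adaptor that holds dihydrolipoamide dehydrogenase in the oxoglutarate dehydrogenase complex of the citric acid cycle. Its probe set read 5.11, 3.84 and 3.98 in iPSC high, against 5.98, 6.14 and 5.99 in iPSC low. ESC high arrays gave 5.26, 4.56 and 4.26, against 5.59, 5.38 and 5.84 in ESC low. In both cell types every high array was under every low array, and replicate 2 was the highest of the high arrays. The high arrays also scattered more, with group means of 4.31 ± 0.70 in iPSC high and 6.04 ± 0.09 in iPSC low, and of 4.69 ± 0.52 in ESC high and 5.60 ± 0.23 in ESC low (SD, n = 3 each).

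In limma the high-minus-low difference of Mrps36 was -1.72 ± 0.30 (SE) in iPSC, with an adjusted p of 0.0273, a 3.3-fold lower value. In ESC it was -0.91 ± 0.30 with an adjusted p of 0.375, which did not pass. The difference over both cell types was -1.32 ± 0.21 with an adjusted p of 0.0066 in limma. The iPSC effect minus the ESC effect was -0.82 ± 0.43 with an adjusted p of 0.9998, so the effects were not shown to differ between the cell types. The pairs of equal number differed by -0.87, -2.30 and -2.01 in iPSC and by -0.32, -0.82 and -1.58 in ESC, negative in 6 of 6. With a replicate block within each cell type the adjusted p was 0.042 in iPSC and 0.0147 over both cell types. The call in iPSC was lost without iPSC high replicate 3 (adjusted p 0.109), iPSC high replicate 4 (0.122), iPSC low replicate 3 (0.105) or iPSC low replicate 4 (0.101). In these 4 settings 37, 1, 35 and 13 probe sets of the whole table passed in iPSC, against 138 with all arrays. Without all 4 arrays numbered 4 the difference was -1.58 in iPSC (adjusted p 0.365 in limma) and -1.08 over both cell types (adjusted p 0.164), and neither passed. There 0 probe sets of the whole table passed in iPSC and 106 over both cell types, against 138 and 631 with all arrays.

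Neither the other subunits of the complex nor the neighbours of Mrps36 on its chromosome passed over both cell types. The decarboxylase Ogdh differed by 0.04 ± 0.06 (adjusted p 0.82), the succinyltransferase Dlst by 0.03 ± 0.08 (adjusted p 0.907) and dihydrolipoamide dehydrogenase, Dld, by -0.08 ± 0.09 (adjusted p 0.709, all in limma). Its neighbours on chromosome 13, Cdk7, a kinase of transcription and the cell cycle, and Cenph, a kinetochore protein, differed by -0.17 ± 0.08 and -0.04 ± 0.06 and did not pass. Mrps36 has 3 annotated pseudogenes in the mouse, Mrps36-ps1 on chromosome 17 and Mrps36-ps2 and Mrps36-ps3 on chromosome 7. Whether its probe set also reads copies was not tested, so the identity of the transcript behind the difference is uncertain to that extent.

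The promoter of Mrps36 is shown because it is the member called between the fractions. RefSeq places it at chr13:100744610-100744909 of GRCm38.p6 on the minus strand, 250 bases before to 50 bases after the start of transcription. In capitals is its only match to the motifs searched (given with the promoters of all members further on), the letters of a CCAAT box read on the opposite strand. Its GC content is 48.3%.
Mrps36: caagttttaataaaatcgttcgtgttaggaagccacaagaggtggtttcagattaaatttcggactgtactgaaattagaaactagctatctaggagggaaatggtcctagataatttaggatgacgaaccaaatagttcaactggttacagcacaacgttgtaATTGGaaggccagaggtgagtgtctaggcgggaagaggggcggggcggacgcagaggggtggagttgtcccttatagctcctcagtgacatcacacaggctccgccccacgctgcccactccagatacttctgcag

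**Figure D4:**
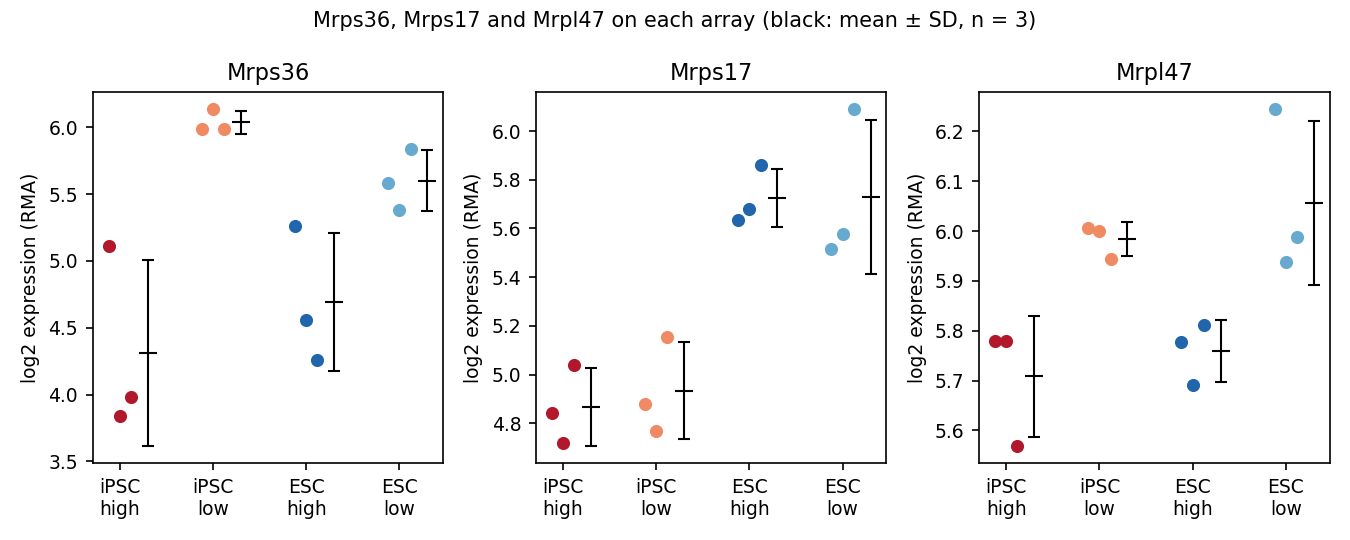
Log2 level of Mrps36, Mrps17 and Mrpl47 on each array by group (points), with mean and SD of the 3 arrays (black). Mrps36 is lower in the high than in the low fraction of each cell type, Mrps17 is lower in all iPSC than in all ESC arrays, and Mrpl47 is 0.29 lower in the high fractions over both cell types with an adjusted p of 0.0602.

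Next to Mrps36, Mrpl47 came nearest to the threshold over both cell types. Its product is the large subunit's counterpart of bacterial L29, which lies near the exit of the peptide tunnel. Arrays read 5.78, 5.78 and 5.57 in iPSC high against 6.01, 6.00 and 5.94 in iPSC low, and 5.78, 5.69 and 5.81 in ESC high against 6.25, 5.94 and 5.99 in ESC low. The fractions did not overlap in either cell type. Over both, the log2 difference was -0.29 ± 0.07 with an adjusted p of 0.0602 in limma. The adjusted p was 0.0356 after each array was centred on its median and 0.0347 among probe sets at or above the median level alone, so the call depends on those choices.

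Mrpl45 had the same arrangement with a smaller difference. It is a protein particular to mitochondria that ties the large subunit to the inner membrane near the tunnel exit. It read 7.59, 7.70 and 7.63 in iPSC high against 7.84, 7.79 and 7.85 in iPSC low, and 7.50, 7.60 and 7.62 in ESC high against 7.78, 7.76 and 7.71 in ESC low. No high array reached a low array of its cell type. The difference over both was -0.18 ± 0.06 with an adjusted p of 0.127 in limma, which did not pass.

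Mrpl49, a large-subunit protein particular to mitochondria, came nearest to the threshold of the 75 in iPSC. It read 6.94, 7.01 and 6.92 in iPSC high against 7.28, 7.24 and 7.31 in iPSC low, and 6.89, 6.86 and 6.98 in ESC high against 6.92, 6.96 and 7.0 in ESC low. The iPSC low arrays stood above all the others. In iPSC the difference was -0.33 ± 0.08 with an adjusted p of 0.0915 in limma, and 0.0476 among the brighter probe sets alone. In ESC it was -0.05 ± 0.08, and the iPSC effect minus the ESC effect, -0.27 ± 0.11, did not pass (adjusted p 0.9998).

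Mrpl23, at the lowest level of the members and the counterpart of a protein at the rim of the bacterial tunnel exit, read 2.82, 2.96 and 2.39 in iPSC high against 1.83, 2.32 and 2.72 in iPSC low, and 2.42, 1.78 and 1.76 in ESC high against 2.72, 2.88 and 2.46 in ESC low. It was lower in every ESC high array than in any ESC low array, while its iPSC fractions overlapped. The difference was -0.70 ± 0.24 in ESC (adjusted p 0.379) and 0.43 ± 0.24 in iPSC (adjusted p 0.485), and the difference of these effects, 1.13 ± 0.33, was the largest among the 75 members (adjusted p 0.9998 in limma). The iPSC difference was 0.20 without iPSC low replicate 2. Values of 1.76 and 1.78 in ESC high lay below the lower quartile of all probe sets, which was at least 2.08 on every array. Mrpl23 and Mrpl48 each have 1 annotated pseudogene, and whether their probe sets read it was not tested.

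More of the large subunit's extreme differences came from members with wide replicate spread. Mrpl48, particular to mitochondria, read 3.81, 3.51 and 3.99 in iPSC high against 3.59, 3.08 and 3.8 in iPSC low, and 3.63, 3.84 and 3.98 in ESC high against 3.13, 3.09 and 4.17 in ESC low. Its fractions overlapped in both cell types, and the difference over both was 0.32 ± 0.19 (adjusted p 0.458 in limma), or 0.50 without ESC low replicate 4. Mrpl46, also particular to mitochondria, read 4.37, 4.94 and 4.61 in ESC high against 3.99, 4.29 and 4.60 in ESC low. The ESC difference of 0.35 ± 0.18 had an adjusted p of 0.654 and was 0.20 without ESC high replicate 3 or ESC low replicate 2. Mrpl32, a zinc-binding protein that a protease of the inner membrane matures before assembly, read 4.52, 4.27 and 4.18 in ESC high against 4.33, 4.87 and 4.53 in ESC low. Its ESC difference of -0.25 ± 0.20 had an adjusted p of 0.798 and was -0.10 without ESC low replicate 3.

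The members with the highest mean values lay within 0.25 of 0 over both cell types, as did 69 of the 75 members. Over both cell types Mrpl39 differed by -0.03 ± 0.06, Mrps18b by 0.08 ± 0.09, Mrpl24 by 0.09 ± 0.08, Mrps2 by -0.11 ± 0.07 and Mrpl52 by 0.12 ± 0.11. Mrpl39, the steadiest of them, read 8.70, 8.71 and 8.68 in iPSC high, 8.71, 8.84 and 8.70 in iPSC low, 8.73, 8.66 and 8.71 in ESC high and 8.68, 8.70 and 8.73 in ESC low. Its groups overlapped throughout. Among the lowest, Mrpl36 differed by 0.05 ± 0.09 and Mrpl14 by 0.07 ± 0.16, and none of these 7 passed in limma.

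The proteins around the functional sites of the large subunit moved little. Mrpl12, Mrpl10 and Mrpl11 form the stalk and its base, where translation factors are engaged, and Mrpl12 also binds the mitochondrial RNA polymerase. They differed by 0.17 ± 0.08, -0.02 ± 0.07 and 0.10 ± 0.08 over both cell types. Mrpl58, a peptidyl-tRNA hydrolase that rescues stalled ribosomes and is built into the large subunit, read 7.66, 7.78 and 7.79 in iPSC high against 7.71, 7.62 and 7.92 in iPSC low, and 7.87, 7.89 and 8.01 in ESC high against 7.57, 7.62 and 7.83 in ESC low. Only its ESC arrays did not overlap, and its ESC difference of 0.24 ± 0.11 had an adjusted p of 0.562 in limma. Mrpl41 differed by -0.15 ± 0.08, Mrps18a by 0.05 ± 0.08 and Mrps30 by -0.02 ± 0.06 over both cell types. None of these 7 passed. Mrpl21, with 0.43 ± 0.18 in ESC, was the member of the large subunit with the most positive difference there. Its array of ESC high replicate 4 read 6.61, and the difference was 0.21 without it.

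In the small subunit, the most positive difference over both cell types was that of Mrps26, particular to mitochondria. It read 6.50, 6.18 and 6.55 in iPSC high against 5.83, 5.95 and 6.12 in iPSC low, and 6.45, 6.23 and 6.05 in ESC high against 5.84, 6.02 and 6.17 in ESC low. The iPSC fractions did not overlap and the ESC fractions did. The difference over both was 0.34 ± 0.10 with an adjusted p of 0.104 in limma. Mrps10, a counterpart of a protein of the bacterial subunit's head, had the most negative difference of the 75 in iPSC. It read 4.99, 4.71 and 5.26 in iPSC high against 5.42, 5.70 and 5.53 in iPSC low, and 5.15, 4.99 and 5.43 in ESC high against 5.31, 5.30 and 4.87 in ESC low. Only the iPSC fractions were apart. Its difference was -0.56 ± 0.17 in iPSC (adjusted p 0.159) and 0.03 ± 0.17 in ESC (adjusted p 0.983), and the effects were not shown to differ (adjusted p 0.9998 in limma).

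Other small-subunit proteins were closer to 0 or noisier. Mrps16 differed by 0.32 ± 0.16 and Mrps6 by 0.25 ± 0.09 over both cell types, with adjusted p of 0.347 and 0.206 in limma. The difference of Mrps16 was 0.18 without iPSC low replicate 2, which read 5.30. Mrps12, which lines the decoding site and whose bacterial counterpart carries streptomycin resistance, differed by 0.05 ± 0.08. Mrps27, a protein with pentatricopeptide repeats, differed by 0.01 ± 0.07 and Mrps34 by -0.01 ± 0.07. No small-subunit member passed between the fractions.

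The effects of the sort in the 2 cell types were also set side by side, member by member. Across the 75 genes, which are not independent replicates, the iPSC and ESC log2 differences correlated at a Pearson r of 0.088 and a Spearman rho of 0.287. Both differences were above 0 for 27 members and below 0 for 12. For 31 the iPSC difference was below 0 and the ESC difference above, and for 5 the reverse. Mrpl23 and Mrps14, with the lowest mean levels, had large differences of opposite sign. These were -0.70 in ESC and 0.43 in iPSC for Mrpl23, and 0.59 and -0.27 for Mrps14. The correlations and these joint counts were not computed for all probe sets, so they are not shown to be particular to the members. The iPSC effect minus the ESC effect had a median of -0.08, against -0.0035 over all probe sets and -0.04 over those at or above the median level. In the test of that difference 0 of 75 members passed in limma, as did 0.0% of all probe sets, and 5 members (6.67%) had an unadjusted p under 0.05, against 4.36% of all.

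The second comparison set iPSC against ESC over both fractions. The fit counted the 6 arrays of a cell type as separate, although high and low arrays of equal number correlated. Its standard errors and p-values therefore tend to be too small. Mrps17 was the 1 member of 75 that passed in limma, against 2.87% of all probe sets. At an unadjusted p under 0.05 there were 10 members (13.3%), against 14.7% of all. Mrps17 was also the only member whose 6 iPSC arrays did not overlap its 6 ESC arrays, against 2.75% of all probe sets. The median difference was -0.0066 over the 75 members and 0.01 over all probe sets, and 71 of the 75 lay within 0.25 of 0. The members' median had no stable sign, with values between -0.02 and 0.02 when single arrays were left out, above 0 without ESC low replicate 4 (0.02), for example.

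Mrps17 encodes the counterpart of bacterial S17, an RNA-binding protein of the small subunit's body. It read 4.84, 4.72 and 5.04 in iPSC high, 4.88, 4.77 and 5.15 in iPSC low, 5.63, 5.68 and 5.86 in ESC high and 5.52, 5.58 and 6.09 in ESC low. The highest iPSC array was below the lowest ESC array, and the fractions of a cell type overlapped. The iPSC-minus-ESC difference was -0.83 ± 0.11 (SE) with an adjusted p of 0.00248 in limma, a 1.77-fold lower value. It stayed past the threshold without any single array, between -0.88 and -0.74, and was -0.80 without the arrays numbered 4 (adjusted p 0.019).

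Mrps17 lies on chromosome 5, where iPSC were lower as a whole. Among the 770 probe sets of chromosome 5 at or above the median level, the median difference was -0.24, and 203 passed as lower and 4 as higher, 26.9% in all. On the chromosomes other than 5 and 12 the median was 0.02 and 2.35% passed. Chromosome 12, with a median of -0.29 and 35.9% passing, holds no member. When every chromosome was centred on its own median in each array, the difference of Mrps17 was -0.54 with an adjusted p of 0.0208. The 3 genes next to it on one side passed as lower too. Nipsnap2, a mitochondrial protein, differed by -0.54 ± 0.09 (adjusted p 0.0067), Psph, the phosphatase that completes serine synthesis, by -0.37 ± 0.08 (adjusted p 0.0341) and Cct6a, a subunit of the cytosolic chaperonin, by -0.29 ± 0.06 (adjusted p 0.0248, all in limma). On the other side Zfp11 differed by -0.33 ± 0.10 and Septin14, at the low level of 1.53, by 0.06 ± 0.08, followed by Mmp17 at -0.07 ± 0.10 (adjusted p 0.82), and none of these 3 passed. The cause of the shift of the whole chromosome was not tested.

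The other 2 members on chromosome 5 were lower in iPSC by amounts that did not pass. Mrpl1, whose bacterial counterpart forms the stalk that guides the leaving tRNA, differed by -0.22 ± 0.07 with an adjusted p of 0.158 in limma, close to the median of its chromosome. Mrpl33 read 5.40, 5.01 and 5.79 in iPSC high, 5.30, 5.07 and 5.61 in iPSC low, 5.58, 5.09 and 6.30 in ESC high and 5.64, 5.69 and 5.90 in ESC low. Its cell types overlapped and its difference of -0.34 ± 0.19 had an adjusted p of 0.458. It was -0.18 without ESC high replicate 4, and -0.05 with each chromosome centred. Away from chromosome 5, Mrpl54 on chromosome 10 and Mrpl20 on chromosome 4 differed by -0.32 ± 0.13 and -0.31 ± 0.10, and Mrpl49 on chromosome 19 and Mrps30 on chromosome 13 by 0.18 ± 0.06 and 0.15 ± 0.06. None of the 4 passed, with adjusted p of 0.254, 0.136, 0.13 and 0.26 in limma, while Mrpl49 had an adjusted p of 0.0489 among the brighter probe sets alone.

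**Figure D5:**
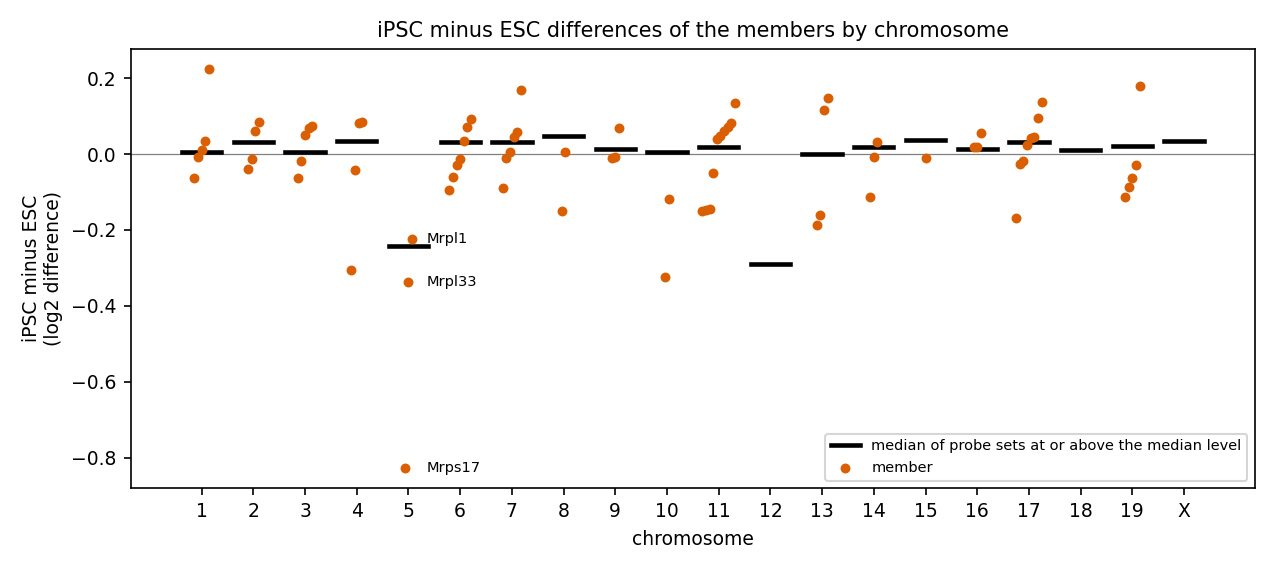
Log2 difference iPSC minus ESC of each of the 75 members (points) by chromosome, with the median of that chromosome's probe sets at or above the median level (bars). Chromosome 5 and chromosome 12 have medians of -0.24 and -0.29. The 3 members on chromosome 5 are labelled and lie near or below its bar, with Mrps17 at -0.83.

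The promoter of Mrps17, the member called between the cell types, is at chr5:129715247-129715546 of GRCm38.p6 on the plus strand in RefSeq, again 250 bases before to 50 bases after the start, with a GC content of 54.0%. The capitals mark the letters of a CCAAT box, once as written and once read on the opposite strand, the only motif searched that was found in it.
Mrps17: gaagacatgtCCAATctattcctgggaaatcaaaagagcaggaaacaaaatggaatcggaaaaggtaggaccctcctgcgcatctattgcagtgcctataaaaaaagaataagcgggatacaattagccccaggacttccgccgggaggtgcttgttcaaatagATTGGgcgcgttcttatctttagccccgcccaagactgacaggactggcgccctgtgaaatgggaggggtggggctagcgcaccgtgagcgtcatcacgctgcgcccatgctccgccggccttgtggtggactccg

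Promoters of the members as a group held some activator motifs more often than those of the array's genes as a whole. Genes of mitochondrial translation are known targets of GABP, NRF1 and YY1, which bind near the start sites of many nuclear genes for mitochondrial proteins. RefSeq promoters were matched for 67 of the 76 members and for 17708 genes on the array, and each motif was searched on both strands. The letters CCGGAAG of GABPA were in 24 members (35.8%) against 12.9% of the array's genes, GCATGCGC of NRF1 in 8 (11.9%) against 4.04%, and AAGATGGC of YY1 in 12 (17.9%) against 3.64%. The shorter ATGGCGG, which overlaps the letters of YY1, was in 12 (17.9%) against 6.04%. At least 1 of the GABPA, NRF1 and first YY1 motifs was in 36 members (53.7%) against 18.7% of the array's genes. CCAAT was in 27 (40.3%) against 42.0%, and CACGTG, an E-box that Myc can bind, in 4 (5.97%) against 9.19%. The motifs were chosen with earlier results of these data known. The array's genes include the members and were not matched to them in level. Whether genes of like level hold these motifs as often was not tested. A match is a description of letters and not a bound site.

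The YY1 letters had a common place. They contain ATG, and whether that ATG is the start of translation was not tested. In 8 of the 12 members with a match they read as written and began 12 to 37 bases after the start of transcription, while in the other 4, Mrpl32, Mrpl36, Mrps11 and Mrps12, they lay before the start on the opposite strand. The 8 are shown, 5′ to 3′ along the gene, because they share these letters and their position, with the motif in capitals. They lie at chr6:71823744-71823771 (Mrpl35), chr4:107066823-107066850 (Mrpl37), chr10:95501905-95501932 (Mrpl42) and chr19:6057722-6057749 (Mrpl49), and in small-subunit genes at chr11:115604148-115604175 (Mrps7), chr11:5707652-5707675 (Mrps24) and chr13:99344790-99344817 (Mrps27), with Mrps18a at chr17:46111005-46111032, all in GRCm38.p6. Mrps7, Mrps18a and Mrps27 are on the plus strand and the others on the minus strand.
Mrpl35: ggcaggctgcAAGATGGCggcttccatc
Mrpl37: tgcacgggcaAAGATGGCggcgtccagg
Mrpl42: agattgaagcAAGATGGCgagcgcgcgg
Mrpl49: ttgaggcgccAAGATGGCagcagcggtg
Mrps18a: ggtgcgttccAAGATGGCggccctcagg
Mrps7: gacagcggccAAGATGGCtgcccccgcg
Mrps24: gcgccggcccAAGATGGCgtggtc
Mrps27: ggtgcgctccAAGATGGCggctcccatg
In iPSC, 7 of the 8 genes had a high-minus-low difference below 0, the exception being Mrps24 at 0.05 ± 0.13. In ESC, 7 of the 8 were above 0, the exception being Mrpl49 at -0.05 ± 0.08. On all probe sets none of the 8 passed in limma in either cell type, the nearest being Mrpl49 in iPSC (adjusted p 0.0915), and the 75 members as a whole had 32 above 0 in iPSC and 58 in ESC. Over both cell types the 8 differences ran from -0.19 ± 0.06 for Mrpl49 to 0.08 ± 0.09 for Mrps24.

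Other genes of mitochondrial translation, from lists chosen with earlier results known, gave no call between the fractions. Of 4 ribosome subunits with other names (Dap3, Ptcd3, Chchd1 and Gadd45gip1), 15 translation factors and mRNA-binding partners, 18 tRNA synthetases and 21 assembly and rRNA-modifying factors, 0 passed in limma for iPSC high against iPSC low, ESC high against ESC low, or both together. The counts at an unadjusted p under 0.05 over both cell types were 1, 1, 1 and 5, and the medians were 0.04, -0.03, 0.0003 and -0.07. Of all probe sets 15.6% had an unadjusted p under 0.05 in that comparison. Of those at or above the median level 19.9% did. Ptcd3, a small-subunit protein with pentatricopeptide repeats, came out at -0.14 ± 0.06 with an adjusted p of 0.291.

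Between cell types, 4 of these genes passed as lower in iPSC and 0 as higher. They were 2 of the 15 translation factors and partners and 2 of the 21 assembly factors. Of all 25206 probe sets, 2.87% passed, 493 as lower and 231 as higher. Guf1, a GTPase that acts on mitochondrial ribosomes, read 5.37, 5.47 and 5.21 in iPSC high, 5.37, 5.66 and 5.48 in iPSC low, 6.05, 6.06 and 6.14 in ESC high and 6.44, 6.21 and 6.21 in ESC low. Its cell types did not overlap, and its difference of -0.76 ± 0.08 had an adjusted p of 0.000685 in limma. Slirp, which with Lrpprc stabilises mitochondrial mRNA, differed by -0.69 ± 0.13 (adjusted p 0.0117), Gtpbp10, a GTPase of large-subunit assembly, by -0.42 ± 0.09 (adjusted p 0.0339) and Tfb1m, the methyltransferase of small-subunit rRNA, by -0.33 ± 0.08 (adjusted p 0.0387). Guf1 and Gtpbp10 lie on chromosome 5, Slirp on chromosome 12 and Tfb1m on chromosome 17. Dld, the partner of Mrps36 in the oxoglutarate dehydrogenase complex, lies on chromosome 12 and was also lower in iPSC, by -0.60 ± 0.09 (adjusted p 0.00411), while Mrps36 itself differed by 0.03 ± 0.21 (adjusted p 0.975) between cell types.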

How the data were processed

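Values were used as deposited: log2 expression, computed by the authors, with 1 column for each of 12 arrays. RMA, affy 1.36.1 and R 2.15.1 are named in the submitters' processing notes. The chip definition and genome build: not given in the sources used here. RMA normalizes arrays to one distribution, which removes any shift common to all genes. The number of arrays limits the precision.

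Symbols came from the platform annotation: 23185 probe sets had 1 symbol, 0 had several and 2021 had none. All 76 members were found by gene number in a RefSeq table of GRCm38.p6, with the same symbol, which also gave chromosomes and gene order. Promoter sequences were RefSeq's.

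Here limma 3.58.1 (R 4.3.3) fitted 1 mean per group to all 25206 probe sets and 12 arrays, with p-values adjusted by Benjamini-Hochberg over all probe sets of each of 5 comparisons and a threshold of 0.05. Errors of differences are standard errors, and those of group means are SD. The fit was tested on simulated data. Plots used matplotlib 3.10.9 (Python 3.11.15).

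Nothing says that arrays of a group came from separate cultures, so p-values reflect only the spread between samples, and that spread may be technical. Residuals of high and low arrays of equal number correlated at 0.11, 0.13 and 0.21 in iPSC and at 0.34, 0.23 and 0.28 in ESC, so the numbers were taken as pairs within a cell type. The main fit has no term for these pairs. They enter only the replicate block and the differences given pair by pair. The iPSC-minus-ESC fit counts the 6 arrays of a cell type as separate, so its standard errors and p-values tend to be too small. Between cell types arrays of equal number correlated at -0.09 to 0.13 and were not taken as pairs. The highest of these, for the low arrays numbered 4, was no lower than some of the iPSC pairs.

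Members with values in the text were those past the threshold, the 5 highest and 5 lowest in mean level, the 4 most positive and 4 most negative differences of a comparison, the 3 widest and 3 tightest, the 3 with the most unequal effects and a fixed set by role. Neighbours, members on chromosome 5 and members of the promoter sets were added after their values were seen. The members, lists and motifs were chosen with earlier results of these data known. Alternatives were a replicate block, median centring, an intensity trend with robust moderation, the brighter probe sets alone, Mrps36 included, the cell type's own arrays and leaving out each array. Leaving out the arrays numbered 4 and centring each chromosome were added after seeing the data.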

Additional observations from a re-analysis of the deposited data

How the results depend on the processing

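Calls among the members rested on few choices. With only probe sets at or above the median level tested, which adjusts over fewer genes, the count of called members other than Mrps36 was 1 in iPSC high minus low (Mrpl49, -0.33), 1 over both cell types (Mrpl47, -0.29) and 2 between iPSC and ESC (Mrps17 and Mrpl49, Mrpl49 at 0.18). With arrays centred on their medians it was 1 over both cell types (Mrpl47, -0.33). Counting Mrps36 makes it 1 in iPSC and 1 over both by construction. Leaving out single arrays left the counts at 0 in each high-minus-low comparison and at 1 (Mrps17) between cell types. Mrps36 in iPSC ran between -2.13 and -1.49 without single arrays, and at -1.72 lost its call when the iPSC arrays alone were fitted (adjusted p 0.0632 in limma). Over both cell types it ran between -1.52 and -1.20 without single arrays. Without all arrays numbered 4, an alternative chosen after seeing the data, it was -1.58 in iPSC and -1.08 over both, with fewer samples. Between cell types Mrps36 was not called and its sign turned, between -0.17 and 0.17 without single arrays and -0.0386 with each chromosome centred. The replicate block changed no call of a member, with Mrps36 at -1.72 in iPSC. It was not run between cell types, where the numbers were not taken as pairs. In all, 853 other values kept their call or moved by less than the spread between arrays.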
